A study of Mus musculus with 12 samples.

Results

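Integrin and leukocyte adhesion genes were examined in mouse HoxB8-ER myeloid cells with and without Ezh2. The set held 35 genes, chosen by name but with earlier results of these data known. It comprised 25 integrin subunit genes (17 alpha and 8 beta chains), the integrin ligand genes Icam1, Icam2 and Icam4, the selectin ligand gene Selplg, the hyaluronan receptor gene Cd44, and Pecam1, F11r, Jam2, Jam3 and Esam, which encode proteins of cell-cell contacts. Of these, 34 had a transcript cluster (the array's unit for 1 gene) annotated to their symbol alone, out of 30142 genes named on the array. Itga1 shared its cluster with Pelo and was left out. Each of the 34 genes had 1 cluster of its own.

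HoxB8-ER cells are C57BL/6 bone marrow cells, from Ezh2-/- mice or wild-type (WT) littermates, immortalized with HOXB8 fused to the ligand-binding domain of the estrogen receptor. All groups carry that construct. With 0.5 µM estradiol the cells stay as promyelocyte-like progenitors, and after its removal they form neutrophils within 6 days. Arrays came in 6 groups of 2: neutrophils labelled Ezh2-/-, WT neutrophils, Ezh2-/- undifferentiated cells, WT undifferentiated cells, WT neutrophils given GSK343 (an inhibitor of the EZH2 methyltransferase) and WT neutrophils given vehicle. Treatment with GSK343 lasted 9 days according to the labels, which put its concentration at 0.5 µM, whereas the design text states 1 µM; both are given because they disagree. Neither the deleted part of Ezh2, nor the number of lines, nor the source of the replicates is stated in the labels. Genotype and cell line therefore cannot be told apart, and each p-value reflects the spread between these arrays alone, which may be technical. The age of the animals is not given in the sources used here.

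Integrins are pairs of 1 alpha and 1 beta chain that bind matrix proteins or receptors on other cells, and each pairing has its own ligands. Beta2 integrins, made of ITGB2 with ITGAL, ITGAM or ITGAX, are the leukocyte integrins with which neutrophils arrest on vessel walls and take up opsonized particles. Rolling before arrest uses PSGL-1, the product of Selplg, and CD44, while PECAM1 and the JAM proteins serve passage between endothelial cells. EZH2 is the catalytic subunit of Polycomb repressive complex 2, which places a repressive methyl mark on histone H3.

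Values are log2 signals, so a difference of 1 is a doubling, and a level of 1 gene is never set against that of another. The median signal was 4.54 to 4.65 on each of the 8 genotype arrays but 3.88 to 3.96 on the 4 drug arrays. These look separately normalized, and groups are compared within each range. Background was taken on each array from 23 antigenomic probe sets, which match no mouse sequence, as their 95th percentile, and was 4.83 to 5.79. A stricter limit, the 95th percentile of 5222 negative control sets, was 8.43 to 10.91 and served as an alternative. Signals of Itga2b, Itgax, Itgb7 and Icam2, for which folds are given, lay below that limit on every array. Other folds also involve groups below it. Itgav and Itga9 lay below it in both WT genotype groups and in neutrophils labelled Ezh2-/-. Itgb5 did so in neutrophils labelled Ezh2-/-, and Pecam1 in every group but WT undifferentiated cells. The number of arrays limits the precision. Ezh2 itself had log2 signals of 8.74 and 9.02 in neutrophils labelled Ezh2-/-, against 8.31 and 8.34 in WT neutrophils (difference 0.55, SE 0.15, adjusted p = 0.0501). In undifferentiated cells it had 9.10 and 9.44 in Ezh2-/- arrays, against 11.57 and 11.65 in WT arrays (difference −2.34, adjusted p = 5.5e-05). On differentiation Ezh2 fell 9.75-fold in WT cells (log2 difference −3.28, limma adjusted p = 1.23e-06), so its signal in WT neutrophils was already low. In Ezh2-/- cells the difference was −0.39 (limma adjusted p = 0.113). Because the transcript was not lower in neutrophils labelled Ezh2-/- than in WT neutrophils, the former are called by their label. Every direction given for them depends on it. All 10 neutrophil markers lay above background in every neutrophil group, and all 7 promyelocyte markers did so in both undifferentiated groups. Presence above background does not separate the stages. On both arrays, 6 promyelocyte markers were above it in each genotype neutrophil group and 7 in each drug group. Of the neutrophil markers, 5 were above it in WT and 7 in Ezh2-/- undifferentiated cells. In neutrophils labelled Ezh2-/-, 8 of 10 mast cell and basophil markers and all 7 erythroid markers were above it. The 5 endothelial and 8 lymphoid markers measured lay at background in every group.

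Of the 34 genes, 16 lay above background on all 12 arrays, 6 on some of them and 12 on none. The genes at background throughout were Itga2, Itga3, Itga7, Itga10, Itga11, Itgb4, Itgb6, Itgb8, F11r, Jam2, Jam3 and Esam, with log2 signals of 3.57 to 5.35 on the genotype arrays and 3.16 to 4.90 on the drug arrays. Most of these are integrin chains of epithelium, muscle and connective tissue or contact proteins of endothelium. A total of 17 genes passed the test (limma, Benjamini-Hochberg adjusted p under 0.05 over 65956 clusters) in at least 1 comparison. Of the other 17, 11 lay at background throughout and 6 did not: Itga4, Itga5, Itga8, Itgal, Itgb1 and Icam1.

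More adhesion genes were called between stages than between genotypes. In Ezh2-/- labelled cells, 12 of 34 genes changed on differentiation (35.3%; 9 higher, 3 lower), against 22.4% of all clusters (11.7% higher, 10.7% lower), with a median difference of 0.07 over the genes and 0.01 over all clusters. In WT cells, 13 changed (38.2%; 9 higher, 4 lower), against 25.3% of clusters (13% higher, 12.2% lower), with medians of 0.02 and 0.03. Between genotypes, 11 genes differed in neutrophils (32.4%; 6 higher, 5 lower), against 11.8% of clusters (6.75% higher, 5.06% lower), with medians of −0.02 and −0.03, and without Ezh2-/- neutrophil array 2 the count was 6. In undifferentiated cells 5 differed (14.7%; 2 higher, 3 lower), against 2.99% of clusters (1.65% higher, 1.34% lower), with medians of −0.03 and −0.01. No gene differed between GSK343 and vehicle, where 0.00152% of clusters (1 of 65956) were called. The shares depend on the clusters taken. Of clusters with 1 symbol, 27.6% were called on Ezh2-/- differentiation, 31.5% on WT differentiation, 16.6% between genotypes in neutrophils and 4.41% in undifferentiated cells. Of clusters above background on both arrays of a group, 49%, 56.4%, 26.7% and 6.38% were called in the same order. The adhesion genes above background were not counted apart.

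**Figure D1:**
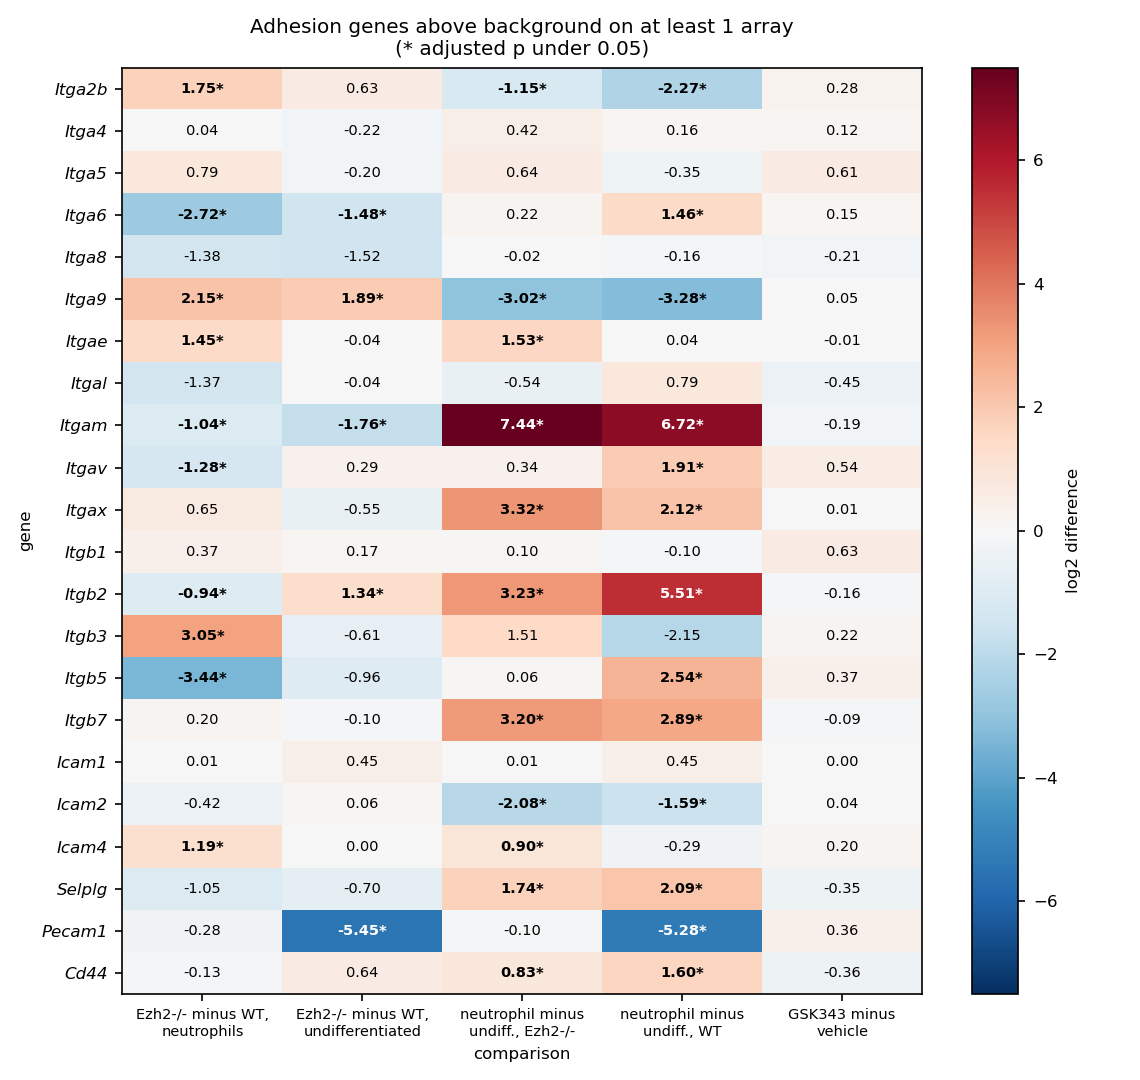
Log2 differences of the 22 genes above background on at least 1 array (rows) in 5 comparisons (columns), with colour from blue (lower) to red (higher) and an asterisk where the adjusted p was under 0.05. Itgam carries the deepest red in both differentiation columns (7.44 in Ezh2-/- and 6.72 in WT cells), Pecam1 the deepest blue in 2 columns (−5.45 and −5.28), and the GSK343 column holds no asterisk.

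The chains of the beta2 integrin Mac-1, Itgam and Itgb2, had the 2 largest fold rises of the 34 genes on differentiation in WT cells. Itgam (CD11b) had log2 signals of 16.23 and 16.09 in neutrophils labelled Ezh2-/-, 17.29 and 17.10 in WT neutrophils, 9.05 and 8.39 in Ezh2-/- undifferentiated cells and 10.80 and 10.15 in WT undifferentiated cells. Every neutrophil array stood above every undifferentiated array, and at both stages the Ezh2-/- labelled arrays stood below the WT arrays. On differentiation Itgam rose 174.1-fold in Ezh2-/- cells (log2 difference 7.44, SE 0.25, adjusted p = 2.39e-07) and 105.5-fold in WT cells (log2 difference 6.72, SE 0.25, adjusted p = 4.01e-07).

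Itgb2 (CD18), the beta chain shared by all leukocyte integrins of this class, had log2 signals of 15.57 and 15.41 in neutrophils labelled Ezh2-/-, 16.57 and 16.28 in WT neutrophils, 12.38 and 12.13 in Ezh2-/- undifferentiated cells and 10.79 and 11.05 in WT undifferentiated cells. Its rise on differentiation was 9.41-fold in Ezh2-/- cells (log2 difference 3.23, SE 0.18, adjusted p = 4.82e-06) and 45.6-fold in WT cells (log2 difference 5.51, SE 0.18, adjusted p = 2.15e-07). The order of the genotypes turned with stage: Ezh2-/- arrays were the higher ones in undifferentiated cells and the lower ones in neutrophils, with no overlap at either stage.

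Itgax (CD11c), a beta2 partner of dendritic cells and macrophages that neutrophils also carry, had log2 signals of 8.45 and 8.70 in neutrophils labelled Ezh2-/-, 7.43 and 8.42 in WT neutrophils, 5.30 and 5.21 in Ezh2-/- undifferentiated cells and 5.83 and 5.79 in WT undifferentiated cells. It rose at least 8.09-fold in Ezh2-/- cells, whose progenitor signals lay at background (log2 difference 3.32, SE 0.26, adjusted p = 2.83e-05), and 4.33-fold in WT cells (log2 difference 2.12, SE 0.26, adjusted p = 0.000253). In neutrophils the arrays labelled Ezh2-/- stood above the WT arrays, by a difference that was not called (0.65, adjusted p = 0.171). Itgal (CD11a), the alpha chain of LFA-1, had log2 signals of 13.37 and 11.98 in neutrophils labelled Ezh2-/-, 14.40 and 13.68 in WT neutrophils, 12.93 and 13.49 in Ezh2-/- undifferentiated cells and 13.24 and 13.26 in WT undifferentiated cells. It was above background everywhere and was not called in any comparison. Its difference between genotypes in neutrophils was −1.37 (SE 0.41, adjusted p = 0.0684).

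**Figure D2:**
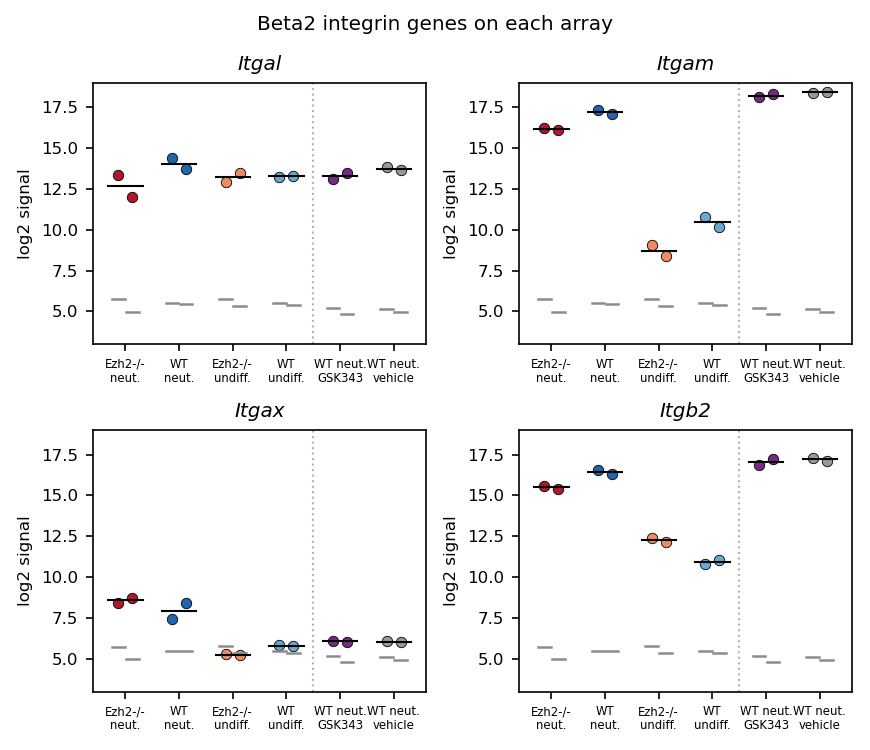
Log2 signal of the 4 beta2 integrin genes on each array: points are arrays, black bars group means, short grey bars each array's background, and the dotted line parts the separately normalized drug arrays. Itgam and Itgb2 sit at 15.41 to 17.29 in the neutrophils of both genotypes and at 8.39 to 12.38 in undifferentiated cells, whereas Itgal stays between 11.98 and 14.40.

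Itgam and Itgax are neighbours on chromosome 7 in RefSeq (GRCm38.p6), with a pseudogene between them. They are shown with Itga2b, which fell on differentiation, as the 250 bases before each gene's RefSeq start, 5′ to 3′ on the gene's strand. Capitals mark GAGGAA, the core to which PU.1, a myeloid transcription factor, binds, and AGATAA or TGATAA, cores of GATA factor sites. Both were searched on both strands, and no overlap between them occurs in the sequences shown.
Itgam, chr7:128062390-128062639, plus strand: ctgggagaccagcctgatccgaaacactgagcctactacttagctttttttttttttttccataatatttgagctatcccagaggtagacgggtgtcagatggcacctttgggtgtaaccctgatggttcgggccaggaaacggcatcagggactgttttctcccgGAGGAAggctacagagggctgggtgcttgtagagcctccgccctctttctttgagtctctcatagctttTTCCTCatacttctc
Itgax, chr7:128129300-128129549, plus strand: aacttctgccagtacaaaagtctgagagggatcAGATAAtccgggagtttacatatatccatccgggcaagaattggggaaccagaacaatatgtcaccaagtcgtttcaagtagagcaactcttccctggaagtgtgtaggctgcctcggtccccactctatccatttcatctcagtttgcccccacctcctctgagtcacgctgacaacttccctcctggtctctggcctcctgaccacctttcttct
Itga2b, chr11:102469884-102470133, minus strand: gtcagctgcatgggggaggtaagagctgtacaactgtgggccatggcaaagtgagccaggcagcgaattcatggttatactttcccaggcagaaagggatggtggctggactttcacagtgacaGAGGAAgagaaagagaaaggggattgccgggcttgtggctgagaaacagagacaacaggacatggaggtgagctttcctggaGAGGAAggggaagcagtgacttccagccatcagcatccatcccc

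The Itgam window held 2 GAGGAA matches and no GATA match, the Itgax window 1 GATA match and no GAGGAA match, and the Itga2b window 2 GAGGAA matches and no GATA match. Of 32851 RefSeq promoter windows of this length, 23.3% held GAGGAA and 16.6% held AGATAA or TGATAA on either strand. Of the 9 genes that changed in the same direction on differentiation in both genotypes, 6 had a promoter entry. Cd44 had 2 GAGGAA matches and 1 GATA match, and Itgb7 and Itga9 had neither. Promoter entries matched 22 of the 35 gene symbols.

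In neutrophils both chains of Mac-1 were lower in the Ezh2-/- labelled arrays than in WT arrays, Itgb2 by 1.92-fold (log2 difference −0.94, SE 0.18, adjusted p = 0.00868) and Itgam by 2.05-fold (log2 difference −1.04, SE 0.25, adjusted p = 0.0264). In undifferentiated cells they moved apart: Itgam was 3.38-fold lower in Ezh2-/- than in WT arrays (log2 difference −1.76, SE 0.25, adjusted p = 0.00494), while Itgb2 was 2.52-fold higher (log2 difference 1.34, SE 0.18, adjusted p = 0.0037). The Itgam call in neutrophils ended when any 1 of the 4 arrays compared was left out (adjusted p = 0.0807 and 0.146 without Ezh2-/- arrays 1 and 2, 0.143 and 0.0669 without WT arrays 1 and 2), and with the 8 genotype arrays alone (adjusted p = 0.078). The Itgb2 call there ended without WT array 1 (adjusted p = 0.0676) or Ezh2-/- array 2 (adjusted p = 0.0715). In undifferentiated cells neither call ended without 1 array, although both did with the 4 compared arrays alone (adjusted p = 0.2 for Itgam and 0.092 for Itgb2).

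Itgb7, the beta chain that pairs with ITGA4 or with ITGAE in lymphocytes and mast cell progenitors, rose on differentiation in both genotypes. It had log2 signals of 10.04 and 10.05 in neutrophils labelled Ezh2-/-, 9.71 and 9.96 in WT neutrophils, 7.13 and 6.55 in Ezh2-/- undifferentiated cells and 7.05 and 6.84 in WT undifferentiated cells. The rise was 9.19-fold in Ezh2-/- cells (log2 difference 3.20, SE 0.20, adjusted p = 8.65e-06) and 7.43-fold in WT cells (log2 difference 2.89, SE 0.20, adjusted p = 8.88e-06), and the genotypes overlapped in undifferentiated cells, whereas in neutrophils the Ezh2-/- labelled arrays stood slightly higher without a call (log2 difference 0.20, SE 0.20, adjusted p = 0.661). Its partner Itga4 was above background on all arrays at 11.05 to 12.97 and was called in no comparison.

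Itgae (CD103), the other partner of Itgb7, was at background on every array except Ezh2-/- neutrophil array 2. It had 5.51 and 6.18 in neutrophils labelled Ezh2-/-, against 4.36 and 4.42 in WT neutrophils, 4.30 and 4.33 in Ezh2-/- undifferentiated cells and 4.30 and 4.41 in WT undifferentiated cells. The limma test called it higher in neutrophils labelled Ezh2-/- than in WT neutrophils (log2 difference 1.45, SE 0.19, adjusted p = 0.00117). It was also called higher there than in their progenitors (log2 difference 1.53, SE 0.19, adjusted p = 0.000415). With 1 of the 2 brighter arrays at background, no fold is given. In WT cells its difference on differentiation was 0.04 (adjusted p = 0.932).

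Itga2b and Itgb3, whose products form the fibrinogen receptor of platelets, both had signals called higher in neutrophils labelled Ezh2-/-. The Itgb3 call depended on single arrays. Itga2b (CD41) had log2 signals of 7.47 and 7.62 in neutrophils labelled Ezh2-/-, 5.79 and 5.82 in WT neutrophils, 8.32 and 9.07 in Ezh2-/- undifferentiated cells and 8.04 and 8.10 in WT undifferentiated cells. It was 3.35-fold above WT neutrophils (log2 difference 1.75, SE 0.21, adjusted p = 0.000706), with no overlap, and in both genotypes it was lower in neutrophils than in progenitors (log2 difference −1.15, SE 0.21, adjusted p = 0.00345 in Ezh2-/- cells and log2 difference −2.27, SE 0.21, adjusted p = 4.23e-05 in WT cells).

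Itgb3 (CD61), which pairs with ITGA2B or ITGAV, had the widest gap between replicates of the 34 genes in 3 of the 6 groups. It had log2 signals of 10.27 and 12.33 in neutrophils labelled Ezh2-/-, 8.87 and 7.64 in WT neutrophils, 10.70 and 8.88 in Ezh2-/- undifferentiated cells and 10.70 and 10.10 in WT undifferentiated cells. The arrays of 1 group were 2.06 apart in neutrophils labelled Ezh2-/-, 1.23 in WT neutrophils and 1.82 in Ezh2-/- progenitors. The difference between genotypes in neutrophils (log2 difference 3.05, SE 0.73, adjusted p = 0.0258) was 4.07 without Ezh2-/- array 1 (adjusted p = 0.0108) and 3.66 without WT array 1 (adjusted p = 0.043). The call ended without Ezh2-/- array 2 (2.02, adjusted p = 0.174) or WT array 2 (2.43, adjusted p = 0.15), and also with the 8 genotype arrays alone (adjusted p = 0.0819) or the 4 compared arrays alone (adjusted p = 0.0863).

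Itgav and Itgb5, whose products pair as a vitronectin receptor, were both lower in neutrophils labelled Ezh2-/-. Itgav, the alpha chain that pairs with ITGB3 and ITGB5, had log2 signals of 9.32 and 8.93 in neutrophils labelled Ezh2-/-, 10.34 and 10.48 in WT neutrophils, 8.63 and 8.94 in Ezh2-/- undifferentiated cells and 8.61 and 8.38 in WT undifferentiated cells. Itgb5 had log2 signals of 9.25 and 7.94 in neutrophils labelled Ezh2-/-, 11.94 and 12.14 in WT neutrophils, 8.66 and 8.41 in Ezh2-/- undifferentiated cells and 9.63 and 9.36 in WT undifferentiated cells. For both genes the WT neutrophils stood above all other genotype arrays. On differentiation in Ezh2-/- cells the differences were 0.34 for Itgav (adjusted p = 0.231) and 0.06 for Itgb5 (adjusted p = 0.936). In WT cells Itgav rose 3.77-fold (log2 difference 1.91, SE 0.17, adjusted p = 4.27e-05) and Itgb5 5.83-fold (log2 difference 2.54, SE 0.35, adjusted p = 0.000474).

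In neutrophils labelled Ezh2-/-, Itgb5 was 10.9-fold below WT neutrophils (log2 difference −3.44, SE 0.35, adjusted p = 0.000284) and Itgav 2.43-fold below (log2 difference −1.28, SE 0.17, adjusted p = 0.0015). The Itgb5 difference was −4.10 without Ezh2-/- array 1 and −2.79 without array 2, and remained called in both cases. Itgb8, which also pairs with ITGAV, lay at background on every array.

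**Figure D3:**
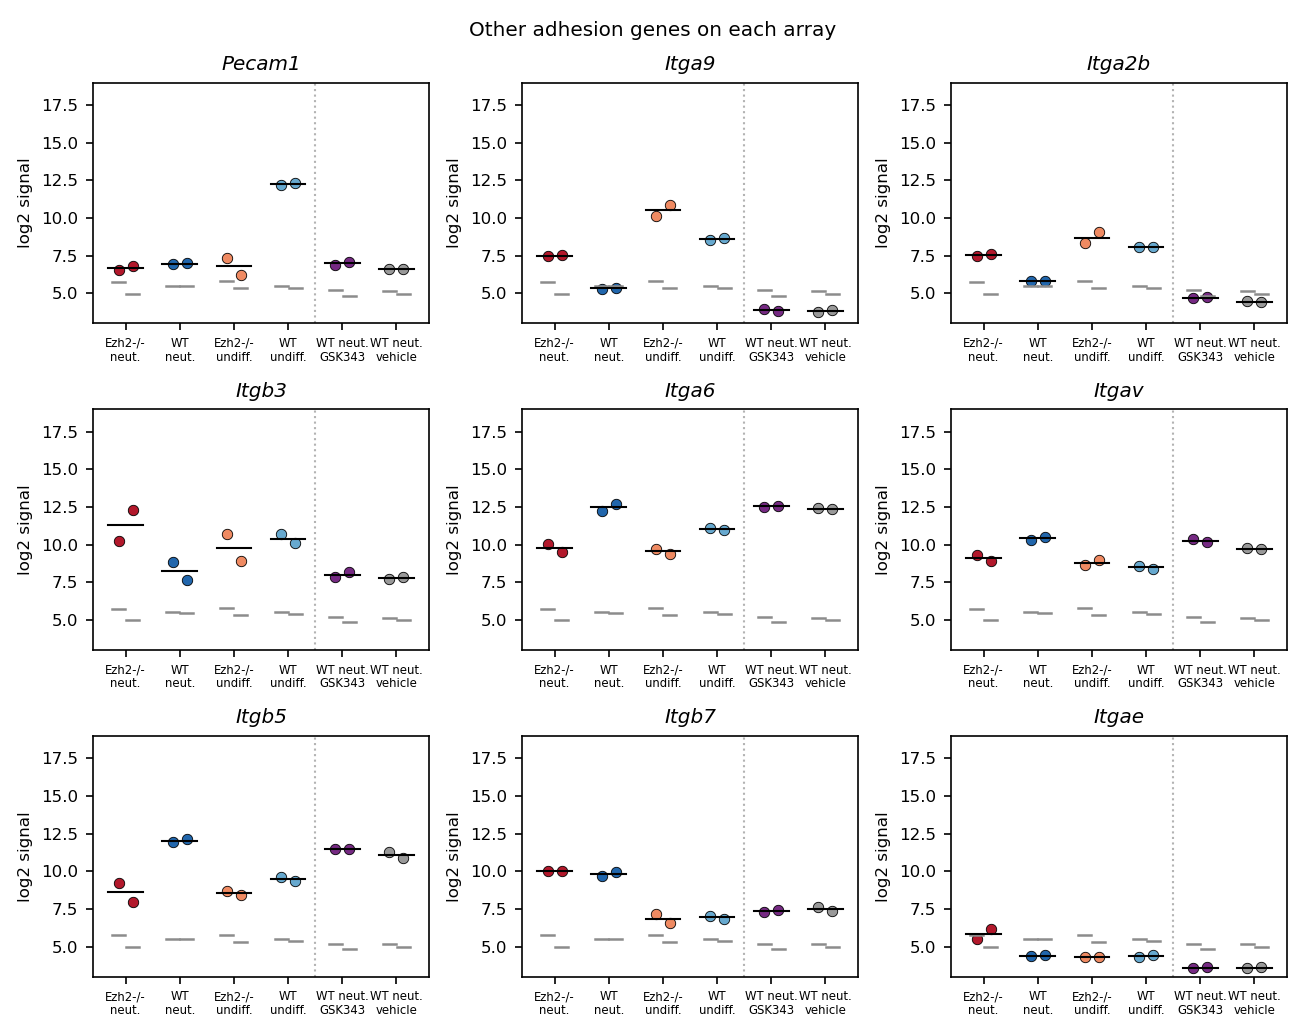
Log2 signal of 9 further adhesion genes on each array, drawn as for the beta2 genes. Pecam1 is above 12 in WT undifferentiated cells alone, Itgb5 is near 12 in WT neutrophils and at 7.94 to 9.63 on the other genotype arrays, and Itgae rises above grey background bars on 1 array of neutrophils labelled Ezh2-/-.

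Among the alpha chains that pair with ITGB1, Itga6 and Itga9 differed between genotypes at both stages and in opposite directions. Itga6 (CD49f), a laminin receptor chain, had log2 signals of 10.05 and 9.48 in neutrophils labelled Ezh2-/-, 12.25 and 12.72 in WT neutrophils, 9.73 and 9.36 in Ezh2-/- undifferentiated cells and 11.11 and 10.94 in WT undifferentiated cells. It was 6.59-fold lower in neutrophils labelled Ezh2-/- than in WT neutrophils (log2 difference −2.72, SE 0.22, adjusted p = 9.11e-05) and 2.79-fold lower in Ezh2-/- than in WT undifferentiated cells (log2 difference −1.48, SE 0.22, adjusted p = 0.00661). The second call ended without WT undifferentiated array 1 (−1.39, adjusted p = 0.0687) and with the 4 compared arrays alone (adjusted p = 0.0867). On differentiation Itga6 differed by 0.22 in Ezh2-/- cells (adjusted p = 0.586) and rose 2.75-fold in WT cells (log2 difference 1.46, SE 0.22, adjusted p = 0.000946).

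Itga9, a chain that binds tenascin and osteopontin, had log2 signals of 7.44 and 7.51 in neutrophils labelled Ezh2-/-, 5.30 and 5.36 in WT neutrophils, 10.12 and 10.87 in Ezh2-/- undifferentiated cells and 8.52 and 8.68 in WT undifferentiated cells. Both Ezh2-/- labelled groups stood above the WT group of the same stage, by at least 3.96-fold in neutrophils, where WT signals lay at background (log2 difference 2.15, SE 0.21, adjusted p = 0.000249), and by 3.71-fold in undifferentiated cells (log2 difference 1.89, SE 0.21, adjusted p = 0.00124). The call in undifferentiated cells ended with the 4 compared arrays alone (adjusted p = 0.127). It was lower in neutrophils than in progenitors of both genotypes, 8.10-fold in Ezh2-/- cells (log2 difference −3.02, SE 0.21, adjusted p = 1.56e-05) and at least 8.64-fold in WT cells (log2 difference −3.28, SE 0.21, adjusted p = 6.42e-06).

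The shared beta1 chain Itgb1 lay between 12.99 and 13.80 on all 12 arrays and was not called in any comparison. Itga5, the fibronectin receptor chain, had 11.38 and 10.49 in neutrophils labelled Ezh2-/- and 9.94 and 10.35 in WT neutrophils, without overlap, but the difference of 0.79 was not called (SE 0.34, adjusted p = 0.2). Itga8 had a difference of −1.38 in neutrophils (adjusted p = 0.057) and −1.52 in undifferentiated cells (adjusted p = 0.0992), neither called. Itga2, a collagen receptor chain, had 4.38 and 4.76 in neutrophils labelled Ezh2-/-, 3.91 and 3.83 in WT neutrophils, 3.98 and 3.85 in Ezh2-/- progenitors and 3.97 and 3.89 in WT progenitors. It was called higher in neutrophils labelled Ezh2-/- than in WT neutrophils (difference 0.70, adjusted p = 0.0173) and in those than in Ezh2-/- progenitors (0.65, adjusted p = 0.0137), but all its signals lay at background, so no fold is given. The first of these ended without WT array 1 (adjusted p = 0.0648), WT array 2 (adjusted p = 0.0851) or Ezh2-/- array 2 (adjusted p = 0.13), and the second without undifferentiated array 2 (adjusted p = 0.0554) or neutrophil array 2 (adjusted p = 0.0996).

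Pecam1 (CD31), which bonds to itself at cell contacts, showed the widest genotype difference of the set. It had log2 signals of 6.57 and 6.79 in neutrophils labelled Ezh2-/-, 6.91 and 7.02 in WT neutrophils, 7.35 and 6.23 in Ezh2-/- undifferentiated cells and 12.16 and 12.32 in WT undifferentiated cells. The 2 WT progenitor arrays stood apart from all others, and the Ezh2-/- progenitors were 43.8-fold below them (log2 difference −5.45, SE 0.29, adjusted p = 1.63e-05). Neutrophils of the genotypes differed by −0.28 (adjusted p = 0.69). On differentiation the difference was −0.10 in Ezh2-/- cells (SE 0.29, adjusted p = 0.871), while Pecam1 fell 38.7-fold in WT cells (log2 difference −5.28, SE 0.29, adjusted p = 2.98e-06). The Ezh2-/- progenitor arrays lay on both sides of the WT neutrophil arrays. Leaving out any 1 array ended neither called difference, and without Ezh2-/- undifferentiated array 2 the difference on differentiation in Ezh2-/- cells was called too.

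Of the ICAM genes, Icam2, which encodes a beta2 integrin ligand, fell on differentiation. It had log2 signals of 6.24 and 6.01 in neutrophils labelled Ezh2-/-, 6.50 and 6.60 in WT neutrophils, 8.06 and 8.35 in Ezh2-/- undifferentiated cells and 8.29 and 7.99 in WT undifferentiated cells. The fall was 4.22-fold in Ezh2-/- cells (log2 difference −2.08, SE 0.16, adjusted p = 2.46e-05) and 3.02-fold in WT cells (log2 difference −1.59, SE 0.16, adjusted p = 7.07e-05). Icam1, the inducible ligand, had signals of 6.28 to 7.22 on genotype arrays and was not called.

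Icam4, a red cell ligand of integrins, had 5.06 and 5.39 in neutrophils labelled Ezh2-/-, against 4.20 and 3.87 in WT neutrophils, 4.54 and 4.11 in Ezh2-/- progenitors and 4.27 and 4.38 in WT progenitors. Neutrophil array 2 labelled Ezh2-/- alone lay above background. The test called it higher there than in WT neutrophils (log2 difference 1.19, SE 0.24, adjusted p = 0.0105) and than in Ezh2-/- progenitors (log2 difference 0.90, SE 0.24, adjusted p = 0.0228), but the signals are too near background for a fold. The first call ended without WT array 2 (adjusted p = 0.0683) or Ezh2-/- array 2 (adjusted p = 0.0885), and the second without undifferentiated array 2 (adjusted p = 0.11) or neutrophil array 2 (adjusted p = 0.143).

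The genes of rolling receptors rose on differentiation. Selplg had log2 signals of 12.83 and 12.18 in neutrophils labelled Ezh2-/-, 13.83 and 13.28 in WT neutrophils, 11.44 and 10.08 in Ezh2-/- undifferentiated cells and 11.78 and 11.14 in WT undifferentiated cells. It rose 3.35-fold in Ezh2-/- cells (log2 difference 1.74, SE 0.44, adjusted p = 0.02) and 4.27-fold in WT cells (log2 difference 2.09, SE 0.44, adjusted p = 0.0066). In Ezh2-/- cells the call ended without undifferentiated array 2 (1.07, adjusted p = 0.0866) or neutrophil array 1 (1.42, adjusted p = 0.131), and the difference was 2.42 without undifferentiated array 1. In WT cells it ended without undifferentiated array 2 (1.77, adjusted p = 0.059) or neutrophil array 1 (1.82, adjusted p = 0.052).

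Cd44 had log2 signals of 13.04 and 12.49 in neutrophils labelled Ezh2-/-, 13.18 and 12.60 in WT neutrophils, 11.93 and 11.93 in Ezh2-/- undifferentiated cells and 11.33 and 11.26 in WT undifferentiated cells. It rose 1.78-fold in Ezh2-/- cells (log2 difference 0.83, SE 0.24, adjusted p = 0.0356) and 3.03-fold in WT cells (log2 difference 1.60, SE 0.24, adjusted p = 0.00089). The call in Ezh2-/- cells ended without their undifferentiated array 1 (adjusted p = 0.109), undifferentiated array 2 (adjusted p = 0.0874) or neutrophil array 1 (0.55, adjusted p = 0.23), and under 5 of 8 other processing alternatives (adjusted p 0.0585 to 0.126). Between genotypes, neither Cd44 nor Selplg was called at either stage.

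On differentiation 6 genes were called higher in both genotypes (Itgam, Itgb2, Itgax, Itgb7, Selplg and Cd44) and 3 lower in both (Itga2b, Itga9 and Icam2). These are 6 of the 9 called higher in each genotype, and 3 of 3 called lower in Ezh2-/- cells and 3 of 4 in WT cells. The 2 comparisons share no arrays, but they come from the same fit, which gave each gene the same SE in both. It was 0.25 for Itgam and 0.18 for Itgb2 in either genotype. The calls in the 2 genotypes are therefore not independent. Differentiation also called 22.4% of all clusters in Ezh2-/- cells and 25.3% in WT cells. The share of all clusters called in both genotypes was not counted. Whether the overlap of the adhesion genes exceeds that share was therefore not tested.

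Whether the genotype difference itself changed with stage was tested as an interaction, the genotype difference in neutrophils minus that in undifferentiated cells. It was called for 5 of 34 genes (14.7%; 2 higher, 3 lower), against 4.41% of all clusters (2.77% higher, 1.65% lower), with medians of 0.03 and −0.02. Of clusters with 1 symbol 6.74% were called, and of those above background on both arrays of a group 10.3%. The count of adhesion genes was 3 without WT undifferentiated array 2 or WT neutrophil array 1, and 8 without Ezh2-/- neutrophil array 1. Pecam1 (log2 difference 5.17, SE 0.42, adjusted p = 0.000249) and Itgae (log2 difference 1.49, SE 0.27, adjusted p = 0.0151) had positive interactions, and Itgb2 (log2 difference −2.28, SE 0.25, adjusted p = 0.00148), Itgav (log2 difference −1.58, SE 0.25, adjusted p = 0.008) and Itgb5 (log2 difference −2.48, SE 0.49, adjusted p = 0.0233) negative ones. The Itgb5 call ended without any 1 of the 4 WT arrays (adjusted p = 0.0626 and 0.0949 without undifferentiated arrays 1 and 2, and 0.06 and 0.0589 without neutrophil arrays 1 and 2), and its value was −3.13 and −1.83 without Ezh2-/- neutrophil arrays 1 and 2. The Itgae call ended without WT undifferentiated array 2 (adjusted p = 0.0667) or WT neutrophil array 1 (adjusted p = 0.0526). For Itga6 the interaction was −1.24 (adjusted p = 0.0645) and for Itgam 0.72 (SE 0.35, adjusted p = 0.389).

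**Figure D4:**
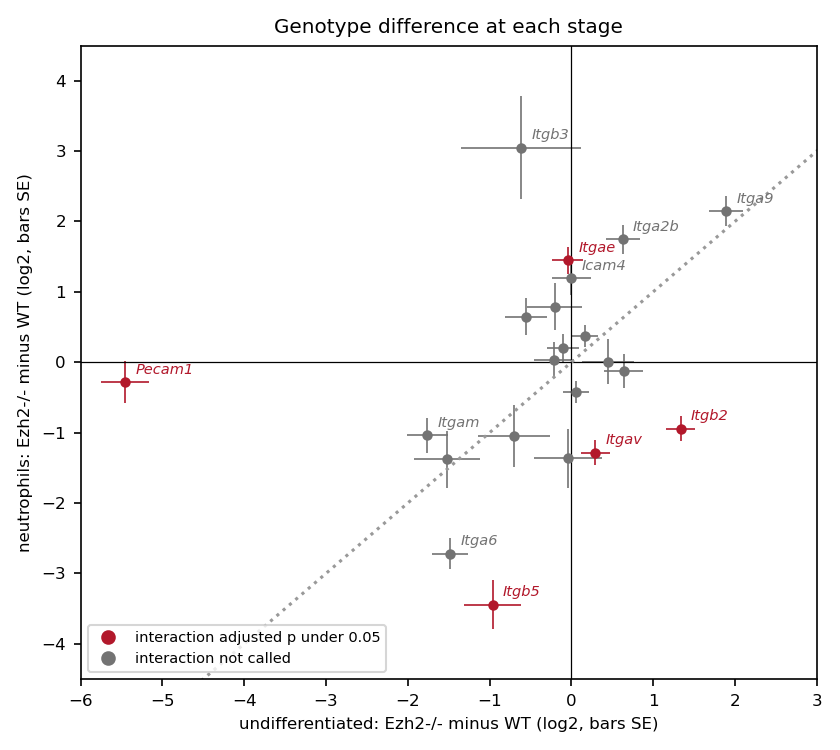
Genotype difference (Ezh2-/- minus WT, log2) in neutrophils on the vertical axis against that in undifferentiated cells on the horizontal axis for the 22 genes above background on at least 1 array, with SE bars and a dotted line of equality. The 5 genes in red, whose interaction was called, are Pecam1 at −0.28 and −5.45 (vertical, horizontal), Itgb2 at −0.94 and 1.34, Itgav, Itgb5 and Itgae.

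GSK343 was compared with vehicle within the 4 drug arrays, and no adhesion gene was called. At an unadjusted p under 0.05 there were 2 of 34 genes, Itgb1 and Itgav, against 6.01% of all clusters, and no other tool was run. Itgb1 had 13.80 and 13.70 with GSK343, against 13.08 and 13.15 with vehicle (difference 0.63, 95% interval 0.28 to 0.99, adjusted p = 0.415). Itgav had 10.38 and 10.16 with GSK343, against 9.77 and 9.69 with vehicle (difference 0.54, 95% interval 0.14 to 0.93, adjusted p = 0.635). For both genes the groups did not overlap, but with 2 arrays a group that also held for genes far from a call, such as Itga4 and Itga6.

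For the Mac-1 chains the intervals of the drug difference included 0. Itgam had 18.10 and 18.31 with GSK343, against 18.39 and 18.39 with vehicle (difference −0.19, 95% interval −0.75 to 0.38). Itgb2 had 16.86 and 17.22 with GSK343, against 17.31 and 17.10 with vehicle (difference −0.16, 95% interval −0.57 to 0.24), and only the Itgb2 groups overlapped. Over the 34 genes the differences ran from −0.45 to 0.63, with a median of 0.04, against 5e-04 over all clusters. The 1 cluster called in this comparison was that of Cpa3, the mast cell carboxypeptidase (difference 2.99, adjusted p = 0.0187). An adjusted p above the threshold does not show that drug and vehicle cells express these genes equally, and the intervals above bound the differences.

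The genotype difference in neutrophils was then set against the drug difference in 1 test, since the 2 share no arrays. It was called for 5.02% of clusters with 1 symbol and 7.68% of clusters above background on both arrays of a group. Of 34 genes, 6 differed (17.6%; 3 higher, 3 lower), against 3.3% of all clusters (1.97% higher, 1.33% lower), with medians of −0.05 and −0.02. Itgb5 (log2 difference −3.81, SE 0.49, adjusted p = 0.0033), Itga6 (log2 difference −2.87, SE 0.31, adjusted p = 0.00143) and Itgav (log2 difference −1.82, SE 0.25, adjusted p = 0.00449) were lower in the genotype difference than in the drug difference. Itga9 (log2 difference 2.10, SE 0.30, adjusted p = 0.00587), Itga2b (log2 difference 1.47, SE 0.29, adjusted p = 0.029) and Itgae (log2 difference 1.45, SE 0.27, adjusted p = 0.0203) were higher. Itgb5 had 11.45 and 11.45 with GSK343, against 11.25 and 10.91 with vehicle. Itga6 had 12.52 and 12.57 with GSK343, against 12.43 and 12.36 with vehicle. Itga2b had 4.70 and 4.72 with GSK343, against 4.46 and 4.41 with vehicle, and like Itga9 and Itgae it lay at background on the drug arrays. For Itgav the estimates had opposite signs, −1.28 by genotype and 0.54 by drug. The calls of Itga2b and Itgae were close to the threshold: that of Itga2b ended without any 1 of the 8 arrays (adjusted p = 0.0609 to 0.112), and that of Itgae without WT neutrophil array 1 or any 1 of the 4 drug arrays (adjusted p = 0.0632 to 0.0922). The Itgb5 difference was −4.46 and −3.16 without Ezh2-/- neutrophil arrays 1 and 2.

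**Figure D5:**
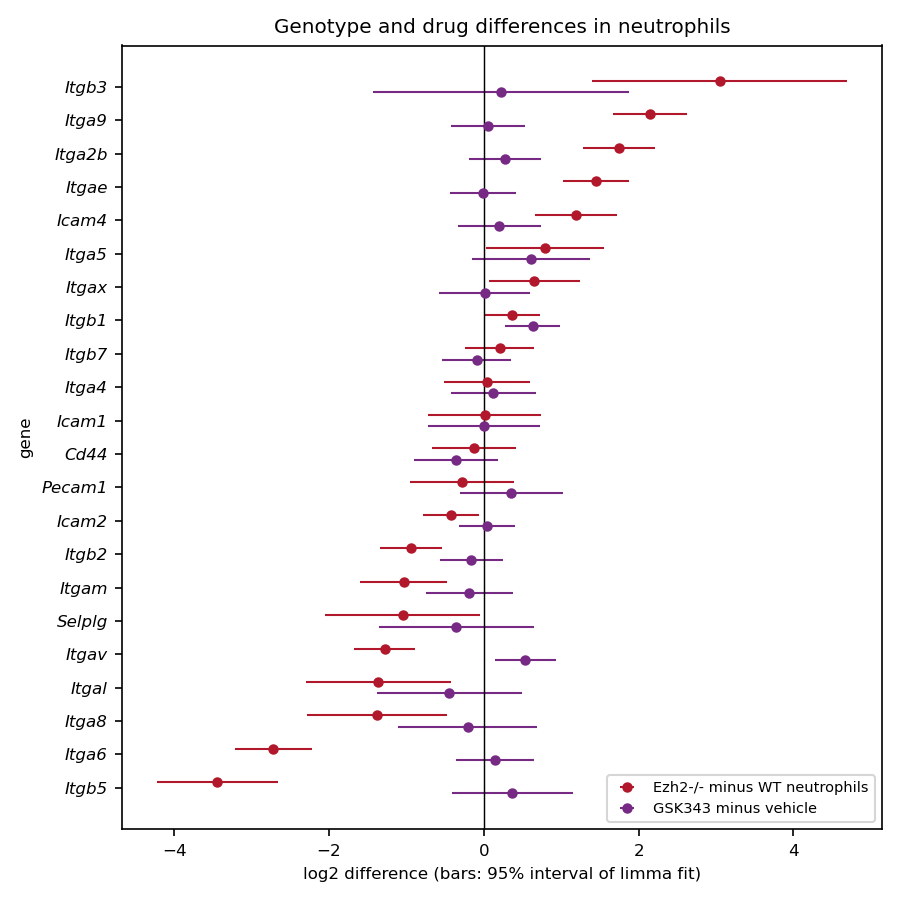
Log2 differences with 95% intervals for the genotype comparison in neutrophils (red) and the drug comparison (purple), for the 22 genes above background on at least 1 array, ordered by genotype difference. Purple points lie between −0.45 and 0.63, while red points run from −3.44 for Itgb5 to 3.05 for Itgb3.

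Adaptors and regulators switch integrins between their resting and binding forms. For the lists that follow, the higher shares of clusters with 1 symbol or above background, given above, are comparators too. Of 27 such genes measured (28 listed), 11 rose and 3 fell on differentiation of Ezh2-/- cells (51.9% called, against 22.4% of all clusters, with medians of 0.55 and 0.01), led by the actin cross-linker gene Actn1 at 2.83, the filamin gene Flna at 2.61 and the focal adhesion gene Zyx at 2.16. In WT differentiation 16 rose and 2 fell (66.7%, against 25.3% of all clusters, with medians of 1.14 and 0.03), with Actn1 at 7.55 (SE 0.43), Zyx at 2.76 and Flna at 2.62. In neutrophils labelled Ezh2-/-, 9 of 27 were lower than in WT neutrophils and none was higher (33.3%, against 11.8% of all clusters, with medians of −0.69 and −0.03), among them the RAP1 effector gene Rassf5 at −1.63, the paxillin gene Pxn at −1.31 and Flna at −1.17. In Ezh2-/- progenitors 2 were higher and 1 lower (11.1%, against 2.99% of all clusters, with medians of −0.05 and −0.01), with Actn1 at 3.97 (SE 0.43, adjusted p = 0.00105), Cyth1 at 0.97 and Parvb, at background, at −0.50. Interactions were called for 4 of 27 (14.8%; 1 higher, 3 lower), against 4.41% of all clusters, with medians of −0.45 and −0.02. They were Actn1 (−4.72), Cyth1 (−1.66), Fermt3 (−1.37), which encodes the blood cell kindlin, and Parvb (0.83, named after its value was seen).

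Kinases and adaptors that signal downstream of bound integrins formed a second list. Of 11 measured (14 listed), 5 rose, 2 fell and 4 were not called on differentiation of Ezh2-/- cells (63.6% called, against 22.4% of all clusters, with medians of 0.36 and 0.01), with the Src-family kinase gene Fgr at least 72.3-fold higher, the adaptor gene Lcp2 at 4.22 and the kinase gene Ptk2b at 2.25. In WT differentiation 7 rose and none fell (63.6%, against 25.3%, with medians of 1.11 and 0.03), with Fgr at least 289.0-fold higher, Lcp2 at 4.75 and the kinase gene Syk at 3.15. In neutrophils labelled Ezh2-/-, 6 of 11 were lower and none higher (54.5%, against 11.8%, with medians of −1.17 and −0.03), among them Fgr at −1.88, Vav1 at −1.73 and Vav3 at −1.62. In progenitors 1 was lower, Pik3cg at −1.15 (9.09% called, against 2.99%, with medians of −0.22 and −0.01). Of the 11, Vav1 alone differed between the genotype and drug differences (−1.64, limma adjusted p = 0.0439; 9.09% called, against 3.3% of all clusters).

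Other adhesion receptors and selectin ligand enzymes showed no common direction. Of 26 measured (27 listed), 7 rose and 5 fell on differentiation of Ezh2-/- cells (46.2% called, against 22.4% of all clusters, with medians of −0.07 and 0.01), including Alcam at 6.34, the progenitor sialomucin gene Cd34 at −5.17 and Ceacam1 at 3.56. In WT differentiation 7 rose and 4 fell (42.3%, against 25.3%, with medians of 0.05 and 0.03), including Cd34 at −7.38, the neutrophil PECAM1 partner gene Cd177 at least 70.8-fold higher and Alcam at 5.78. In neutrophils labelled Ezh2-/-, 5 were higher and 4 lower than in WT neutrophils (34.6%, against 11.8%, with medians of −0.10 and −0.03), with Cd177 at −4.47 (adjusted p = 0.000282) and Cd34 at 2.25. In progenitors Tpst1 (1.14) and Podxl (0.94), both at background in WT, were higher (7.69% called, against 2.99%). Of 7 tetraspanins, which gather integrins in membrane clusters, Cd9 was higher in Ezh2-/- arrays at both stages (1.12 in neutrophils and 1.84 in progenitors), and Cd151 was lower in neutrophils (−0.75). These calls were 28.6% of the tetraspanins in neutrophils and 14.3% in progenitors, against 11.8% and 2.99% of all clusters. On differentiation of Ezh2-/- cells 3 of 7 rose and 1 fell (57.1%, against 22.4% of all clusters, with medians of 0.79 and 0.01), with Cd9 at 2.67, Cd82 at 2.13 and Cd151 at −1.29. In WT cells 3 rose (42.9%, against 25.3%, with medians of 0.78 and 0.03), with Cd9 at 3.39, Cd82 at 2.57 and Cd37 at 1.46. Of the 26 adhesion receptor and selectin ligand genes, 4 had a called interaction (15.4%; 1 higher, 3 lower), against 4.41% of all clusters. Between the genotype and drug differences 4 of the 26 were called (15.4%; 1 higher, 3 lower), against 3.3%. No gene of these 4 lists was called between GSK343 and vehicle.

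Markers of other cells moved with the genotype in neutrophils, where 11.8% of all clusters were called. In neutrophils labelled Ezh2-/-, all 10 mast cell and basophil markers were called higher, and their summed signal was 19.39 to 19.42 (log2), against 12.07 to 13.64 in WT neutrophils, with Mrgprb1 and Tpsab1 at background in both. All 7 erythroid markers were called higher (summed signal 17.39 to 17.62, against 7.84 to 7.86), and none lay at background in neutrophils labelled Ezh2-/-. Of 7 platelet and megakaryocyte markers none was called (9.91 to 10.81, against 9.71 to 12.27), with Tubb1 at background in both groups. Of 11 monocyte, macrophage and dendritic cell markers 4 were lower and 1 higher (15.32 to 15.74, against 16.49 to 17.59), with C1qa at background in both. Of 10 neutrophil markers 3 were lower (20.20 to 20.70, against 20.82 to 21.40). Of 7 promyelocyte markers 3 were higher and none lower (12.69 to 13.43, against 9.58 to 10.04). Of 5 eosinophil markers 2 were higher and none lower (9.87 to 10.72, against 10.30 to 10.40), with Epx and Il5ra at background in both. The part of these cells in the differences of Itga2b, Itgb3, Itgae, Itga9, Icam4, Itga6, Itgav, Itgb5, Itgam and Itgb2 was not tested, and in bulk RNA fewer cells of a type and less RNA per cell cannot be told apart.

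In undifferentiated cells, where 2.99% of all clusters were called, 3 of 7 promyelocyte markers were lower in Ezh2-/- arrays (summed signal 17.82 to 17.83, against 18.48 to 18.58). Of the monocyte, macrophage and dendritic cell markers 2 of 11 were lower (12.97 to 13.28, against 13.86 to 14.12), of the 10 neutrophil markers 2 were higher and 1 lower (10.42 to 12.59, against 11.78 to 12.62), and of the mast cell and basophil markers 1 was higher and 1 lower (18.00 to 18.33, against 18.81 to 18.90). The summed signal of the 7 platelet and megakaryocyte markers was 9.99 to 12.04 in Ezh2-/- arrays, against 8.14 to 8.32 in WT arrays, with none called and Gp5, Vwf, Treml1 and Tubb1 at background in both. Of the 7 erythroid markers 1 was called higher (15.28 to 15.71, against 15.51 to 15.58), with Klf1, Alas2, Rhag, Ermap, Epor and Gata1 at background in both. On differentiation of Ezh2-/- cells all 10 neutrophil markers and all 7 erythroid markers rose, and 5 of 7 promyelocyte markers fell. Of 10 mast cell and basophil markers 8 rose and 1 fell. Of 11 monocyte, macrophage and dendritic cell markers 9 rose and 1 fell. Rises were also called there for 3 of 7 platelet and megakaryocyte markers and 2 of 5 eosinophil markers. On WT differentiation all 10 neutrophil markers rose and all 7 promyelocyte markers fell. Of the 11 monocyte, macrophage and dendritic cell markers 7 rose and 1 fell. Among the 10 mast cell and basophil markers 4 fell and none rose, and 1 of 7 erythroid markers fell. In the same cells 3 of 7 platelet and megakaryocyte markers and 1 of 5 eosinophil markers rose. Of all clusters, 22.4% were called on differentiation of Ezh2-/- cells and 25.3% on that of WT cells. With GSK343 the summed mast cell and basophil signal was 15.07 to 15.12, against 13.59 to 13.63 with vehicle. The eosinophil signal was 14.17 to 14.54, against 10.79 to 11.43. Of these markers only Cpa3 was called. Cpa3 alone had 14.88 and 14.79 with GSK343, and the eosinophil marker Prg2 alone 14.51 and 14.12. The promyelocyte sum was 12.5 to 12.7 with GSK343, against 11.3 to 11.4 with vehicle. The monocyte, macrophage and dendritic cell sum was 16.33 to 16.42, against 15.48 to 16.03. The neutrophil sum was 21.45 to 21.91, against 22.11 to 22.12. No marker of these last lists was called. The part of the cell types above in the differences of Pecam1, Itgam, Itgb2, Itgax, Itga6, Itga9, Itga2b and Itgb3 was not tested.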

How the data were processed

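RNA (250 ng a sample) was hybridized to Affymetrix Mouse Transcriptome Array 1.0 chips, 2 for each of 6 groups. The deposited log2 signals, 1 per transcript cluster and array, were used as given; per the submitters' processing notes, Affymetrix Expression Console and Transcriptome Analysis Console were used, but no source used here states the background correction, the normalization or the genome build. Control entries (6732 of 72688) were left out, and 65956 clusters were tested. Gene names come from GEO's platform annotation, which gives 1 symbol for 30604 clusters, several for 2146 and none for 33206.

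limma 3.58.1 in R 4.3.3 fitted 6 group means to all 12 arrays (residual df 6, prior df 3.06), and p-values were adjusted by Benjamini-Hochberg over all clusters. This limma fit gives every adjusted p reported. It was tested on simulated data. A dim group at background on both arrays gives a bound if both bright arrays lie above background. The bound is the bright mean over the higher of the background limit and the dim signal. The genes and lists were chosen with earlier results of these data known. Genes called in any comparison are described in full; other genes are named from fixed lists, at most 3 a list and comparison, those with the largest difference among the called. Exceptions are named in the text.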

Additional observations from a re-analysis of the deposited data

Results flagged for a closer look

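For 5 adhesion genes the genotype difference itself differed between stages by the interaction test (limma, adjusted over all clusters; neutrophil difference minus undifferentiated difference, 2 arrays a group). Pecam1 had an interaction of 5.17 (adjusted p = 0.000249), with −0.28 in neutrophils and −5.45 in undifferentiated cells. Itgae had 1.49 (adjusted p = 0.0151), with 1.45 and −0.04 for the same stages. Itgb2 had −2.28 (adjusted p = 0.00148), with −0.94 and 1.34. Itgav had −1.58 (adjusted p = 0.008), with −1.28 and 0.29. Itgb5 had −2.48 (adjusted p = 0.0233), with −3.44 and −0.96. The calls of Itgb5 and Itgae ended without single WT arrays, with the values given above.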

How the results depend on the processing

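No called difference of an adhesion gene changed direction under any alternative run: of 649 repeats of 52 called differences, 586 stayed called and 63 were no longer called, while 33 differences were called in every repeat. With only the arrays of the contrast, 7 genes were called on differentiation in Ezh2-/- cells (12 with all arrays; lost were Cd44, Icam4, Itga2, Itga2b and Selplg), 1 between genotypes in undifferentiated cells (5; lost were Itga6, Itga9, Itgam and Itgb2), 9 between genotypes in neutrophils (11; lost were Itga2 and Itgb3), 3 for the interaction (5; lost were Itgae and Itgb5), 14 on WT differentiation (13; gained was Itgb3), 6 for genotype against drug (6) and 0 for GSK343 (0). With the 8 genotype arrays, Itgam and Itgb3 were lost between genotypes in neutrophils and Cd44 on Ezh2-/- differentiation. Leaving out 1 array at a time gave 6 to 11 genes between genotypes in neutrophils, 4 to 7 in undifferentiated cells, 9 to 12 on Ezh2-/- differentiation, 12 to 13 on WT differentiation, 3 to 8 for the interaction, 0 to 0 for GSK343 and 4 to 6 for genotype against drug. The rise of Cd44 in Ezh2-/- cells was also lost under quantile normalization (0.60, adjusted p = 0.126), median centring (0.76, adjusted p = 0.0609) and the mean-variance trend (adjusted p = 0.0585). Calls were gained between genotypes in neutrophils for Itgal (quantile normalization, filter on dim clusters) and Itga8 (filter, 1-symbol clusters), on WT differentiation for Itgb3 (filter), and for the interaction for Itga2b (quantile normalization, 1-symbol clusters), Itga6 (filter, 1-symbol clusters) and Itgb3 (filter). A filter on dim clusters left out Itgae, Icam4 and Itga2. With the negative control limit, 14 genes and not 20 lay above background on both arrays of a group. The genes lost were Itga2b, Itga8, Itgax, Itgb7, Icam1 and Icam2, while Itga9 and Pecam1 lay above that limit on 2 arrays each.

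Counts over all clusters moved more. Between genotypes they were 351 with the arrays of the contrast and 1061 with the 8 genotype arrays in undifferentiated cells (1969 with all arrays), and 962 to 2776 without 1 array; in neutrophils they were 4023 to 6319 without 1 array (7791). With 1-symbol clusters they were 9042 on differentiation in Ezh2-/- cells (14799) and 10226 in WT cells (16664), and with the contrast's arrays 7591 in Ezh2-/- cells. The interaction gave 1352 with its 8 arrays and 1511 to 3758 without 1 array (2911), genotype against drug 947 to 2201 (2177) and GSK343 between 0 and 9 (1). With the replicate block, the adhesion genes called numbered 11, 5, 12, 13, 5, 0 and 6 in the order of the array-by-array ranges, as without it. Correlations of deviations between same-numbered arrays ran from −0.25 to 0.19, so the numbers were not taken to pair the arrays. A choice of a second cluster per gene was not run, since each gene had 1.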
